A study of Mus musculus with 12 samples.

Results

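RNA levels of 8 genes that write, maintain and read CpG methylation were followed across 12 RNA-seq libraries of mouse embryonic fibroblasts, connective tissue cells grown from embryos. The genes were Dnmt1, Dnmt3a, Dnmt3b, Uhrf1, Uhrf2, Mbd1, Mbd2 and Mbd3. They were chosen by name, with earlier results of these data known. Each matched 1 of 37991 gene identifiers, and all 8 were among the 15098 genes that passed the filter on low counts. The cells formed 4 groups of 3 libraries: double knockout of Ing1 and Gadd45a (labelled DKO), Ing1 knockout (Ing1 KO), Gadd45a knockout (labelled Gadd45a KO) and wild type (WT). All were C57BL/6N, from E15.5 male embryos, and came from crosses between Ing1-deficient and Gadd45a-deficient mice. The sample titles call the cells undifferentiated, and they were harvested at passage 4 and 80% confluency, with no treatment named. Whether each library had its own embryo is not in the labels, so p-values measure the spread between these libraries, which may be technical.

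Ing1 is a chromatin protein that recognises trimethylated histone H3 at promoters in use, and Gadd45a has been linked to active DNA demethylation. The comparisons therefore bear on whether transcripts of the opposing side of the system, which adds and reads the mark, differed when either gene or both were removed. Levels are given as CPM, counts divided by the scaled library size in units of 1e6, with SD over 3 libraries. Ing1 stood at 1.29, 0.916 and 1.14 CPM in the labelled DKO libraries and at 1.01, 1.23 and 1.42 CPM in Ing1 KO, against 52.1, 50.4 and 54.4 CPM in WT. Gadd45a went against its labels. It averaged 126 ± 6.3 CPM in the labelled DKO libraries and 100 ± 22 CPM in the libraries labelled Gadd45a KO, against 21.1 ± 0.2 CPM in WT (n = 3 each). No source used here gives the deleted stretch of Gadd45a, so reads from the remaining part cannot be told apart from an intact transcript, and both groups are named by their labels throughout.

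DNA methylation in mammals sits mostly on cytosines of CpG pairs. DNMT1 copies the pattern onto the new strand after replication, and UHRF1 recognises the half-methylated CpGs behind the fork and brings DNMT1 to them. UHRF2 is a close relative of UHRF1 that does not replace it in maintenance. DNMT3A and DNMT3B methylate sites that carried no mark. MBD1 and MBD2 bind methylated CpGs, and MBD3, which binds them poorly in mammals, shares with MBD2 the role of an alternative subunit of the nucleosome remodelling and deacetylase complex NuRD.

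The start-site windows of Dnmt1, Uhrf1 and Mbd3 are shown because these genes carry most of the differences described here. The sequences are RefSeq windows of 300 bases on build GRCm38.p6, which is not the build of the counts, and run from 250 bases before an annotated start to 50 after it, 5′ to 3′ on the gene's strand. Of the 8 genes, 6 were in that table, and where a gene had several windows the one with most matches is printed. Capitals mark the letters TTTCGCGC or TTTGGCGC on either strand, which match the E2F motif, in Dnmt1 and Uhrf1, and CCAAT on either strand in Mbd3.
Dnmt1, chr9:20952574-20952873, minus strand: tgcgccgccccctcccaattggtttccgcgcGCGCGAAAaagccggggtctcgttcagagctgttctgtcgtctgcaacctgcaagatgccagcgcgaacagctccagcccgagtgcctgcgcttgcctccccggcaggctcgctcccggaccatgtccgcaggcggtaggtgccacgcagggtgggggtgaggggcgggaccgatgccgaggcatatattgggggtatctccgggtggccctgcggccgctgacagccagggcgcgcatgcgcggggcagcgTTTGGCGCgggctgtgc
Uhrf1, chr17:56304063-56304362, plus strand: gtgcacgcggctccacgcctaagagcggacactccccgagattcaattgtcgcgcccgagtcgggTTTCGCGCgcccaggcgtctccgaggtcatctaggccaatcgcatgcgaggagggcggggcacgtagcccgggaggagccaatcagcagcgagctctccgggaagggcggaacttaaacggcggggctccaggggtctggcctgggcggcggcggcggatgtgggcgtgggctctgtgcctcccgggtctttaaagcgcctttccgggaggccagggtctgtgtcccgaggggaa
Mbd3, chr10:80399482-80399781, minus strand: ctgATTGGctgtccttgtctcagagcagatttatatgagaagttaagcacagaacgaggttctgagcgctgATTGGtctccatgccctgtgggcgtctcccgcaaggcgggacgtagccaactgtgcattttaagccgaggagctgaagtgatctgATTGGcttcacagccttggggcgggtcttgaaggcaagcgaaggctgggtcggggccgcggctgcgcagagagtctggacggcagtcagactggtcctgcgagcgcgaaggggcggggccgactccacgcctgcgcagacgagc

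In the Dnmt1 window the E2F letters began 219 bases before the start of that window, as GCGCGAAA on the printed strand, and again 33 bases after it. In the Uhrf1 window they began 185 bases before its start. Both genes have other annotated starts upstream of the printed one, with 0 E2F matches in their windows. The distances therefore hold for the printed starts alone, and the letters may lie inside a transcript from a start further upstream. These letters were present in 267 of 32851 windows (0.813%), which belonged to 251 of 27025 genes. Among the 6 genes with a window they were found for 2, Dnmt1 and Uhrf1, and among 25 genes of DNA replication and S phase for 8. The Mbd3 window held 3 CCAAT boxes, all read as ATTGG on the printed strand, beginning 247, 179 and 94 bases before the start. The printed Dnmt1 window held 3 CCAAT boxes as well and the Uhrf1 window 2, which are not in capitals, and 37.4% of all windows held at least 1. The Dnmt1 and Uhrf1 windows held 33 CpGs each and the Mbd3 window 22, against a median of 7 over all windows. The printed windows were picked for motifs, those of Dnmt1 and Uhrf1 for one that holds CpGs, and the windows not printed held 2 and 12 CpGs for Dnmt1 and 12 for Uhrf1. A match to letters is a description of the sequence and shows no binding.

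Gene counts per library ran from 31493168 to 42852059. Fibroblast markers summed to 62600 to 81500 CPM over the 12 libraries, while 7 epithelial markers summed to 3.82 to 9.12 CPM and 7 endothelial markers to 4.5 to 9 CPM. The defining genes Epcam, Krt5, Krt14 and Tie1, named here for their low counts, had at most 3 in any library. Some low-level markers were nevertheless higher in the labelled DKO than in WT, among them Cdh1 (log2 fold change 2.54 ± 0.55 SE, edgeR adjusted p = 0.00596) and Pecam1 (2.44 ± 0.43 SE, 0.00144). Of the 6 endothelial genes that passed the filter, 3 were called higher and 1 lower, Tek (-2.26 ± 0.27 SE, edgeR adjusted p = 0.00013). Over all genes tested, 25.9% were called in this comparison. Macrophage markers reached far higher levels. A list of 17 summed to 2070 to 2590 CPM in the labelled DKO libraries, 326 to 565 CPM in Ing1 KO, 126 to 505 CPM in the libraries labelled Gadd45a KO and 245 to 418 CPM in WT. Of these, 16 passed the filter and all 16 were higher in the labelled DKO than in WT, with a median log2 fold change of 2.50, and Cd163, named because it was the 1 that did not pass, had 2 to 10 counts. The labelled DKO libraries also stood apart on the first principal component, at 41.7 to 48.9 against -39.7 to 0.695 for the other groups. In bulk RNA, more cells of a type and more RNA per cell cannot be told apart.

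Length changes the order of abundance. The length used was that of all annotated exons of a gene merged, 16642 bases for Dnmt3a and 1987 for Mbd3. It can exceed the length of the transcripts present, so genes with much annotated exon sequence may rank too low. Per kilobase of exon, over the 12 libraries, Mbd3 was the most abundant of the 8 genes at 43.3 CPM per kb, followed by Mbd2 at 20.0 and Dnmt1 at 13.5 CPM per kb. Uhrf2 at 11.9 and Uhrf1 at 10.3 CPM per kb came next, ahead of Mbd1 at 4.98 and Dnmt3a at 4.95 CPM per kb. Dnmt3b was last at 0.419 CPM per kb. The fibroblasts thus carried transcripts of the maintenance enzyme, of a single abundant de novo enzyme and of all 3 readers. Summed over the 8 genes, the level was 538 to 549 CPM in the labelled DKO, 505 to 511 CPM in Ing1 KO, 500 to 517 CPM in the libraries labelled Gadd45a KO and 488 to 508 CPM in WT.

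**Figure D1:**
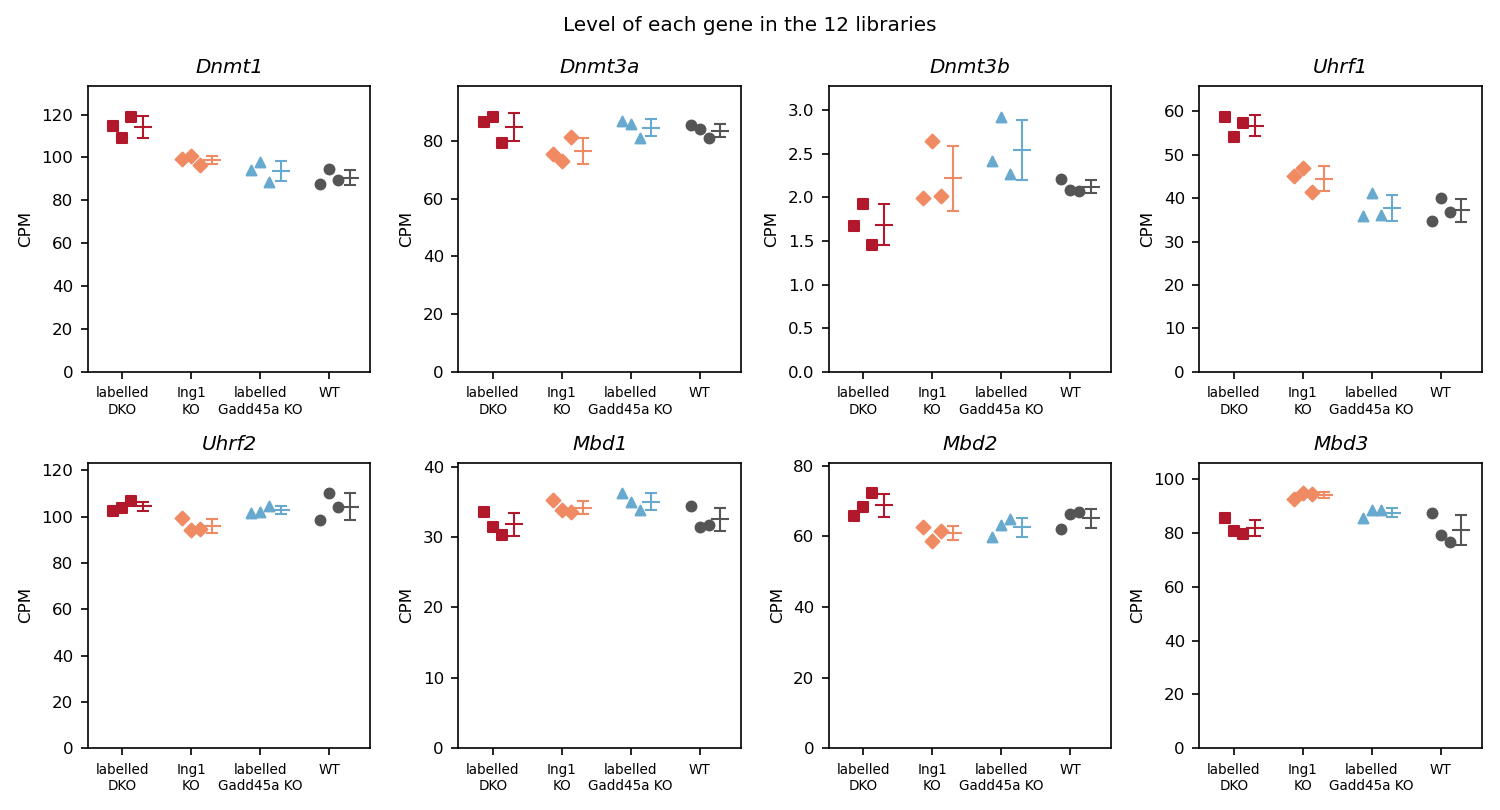
Level of each of the 8 genes (CPM, a separate linear axis per gene) in the 12 libraries, by genotype label; points are libraries and bars give the mean ± SD. Uhrf1 and Dnmt1 lie highest in the labelled DKO, Mbd3 is highest in Ing1 KO, and Dnmt3b stays under 3 CPM in every library.

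The maintenance genes Dnmt1 and Uhrf1 rose together in the labelled DKO fibroblasts, and Uhrf1 rose by less in Ing1 KO. Dnmt1 (ENSMUSG00000004099, chromosome 9) had 114, 109 and 119 CPM in the labelled DKO, 99.3, 100 and 96.5 CPM in Ing1 KO, 94.3, 97.9 and 88.5 CPM in the libraries labelled Gadd45a KO, and 87.8, 94.5 and 89.3 CPM in WT. Each labelled DKO library was above all 9 others, and the libraries labelled Gadd45a KO overlapped those of WT. Uhrf1 (ENSMUSG00000001228, chromosome 17) had 58.8, 54.1 and 57.2 CPM in the labelled DKO, 45.1, 47.1 and 41.5 CPM in Ing1 KO, 36.0, 41.2 and 36.2 CPM in the libraries labelled Gadd45a KO, and 34.8, 40.1 and 36.8 CPM in WT. The labelled DKO libraries were again above the rest, Ing1 KO lay between, and the libraries labelled Gadd45a KO and WT overlapped. Over all genes tested, 41.3% did not overlap between the labelled DKO and WT. The share was 39.1% against Ing1 KO and 45.7% against the libraries labelled Gadd45a KO. The order of the group means was the same for both genes, labelled DKO, Ing1 KO, labelled Gadd45a KO and WT from high to low.

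In the labelled DKO against WT, Dnmt1 was 1.26-fold higher (log2 fold change 0.33 ± 0.05 SE, edgeR adjusted p = 0.000425). Uhrf1 was 1.52-fold higher (0.61 ± 0.07 SE, edgeR adjusted p = 9.91e-05). These were the 2 called of the 8 genes, where 25.9% of all genes tested were called at an adjusted p under 0.05 (15.6% higher, 10.3% lower). Both calls held when any single library was left out. The same genes were called against Ing1 KO, by 0.21 ± 0.05 for Dnmt1 (edgeR adjusted p = 0.00756) and 0.35 ± 0.07 for Uhrf1 (edgeR adjusted p = 0.00298) on the log2 scale. Against the libraries labelled Gadd45a KO the log2 differences were 0.29 ± 0.05 for Dnmt1 and 0.59 ± 0.07 for Uhrf1, with edgeR adjusted p = 0.00102 and 0.000131. The comparisons share the labelled DKO libraries and are not independent of each other.

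In Ing1 KO against WT, Uhrf1 was 1.2-fold higher (log2 fold change 0.26 ± 0.07 SE, edgeR adjusted p = 0.0167). Without WT replicate 1, WT replicate 3 or Ing1 KO replicate 2, its adjusted p was 0.0608, 0.0517 or 0.0821, so this call rests on single libraries. Dnmt1 did not pass the test (0.13, 95% interval 0.02 to 0.23, edgeR adjusted p = 0.0768). Its libraries in the 2 groups did not overlap, as was so for 37.2% of all genes tested. Of the 8 genes 2 were called, Uhrf1 and Mbd3, both higher, against 23.5% of all genes tested (12.1% higher, 11.4% lower). In the libraries labelled Gadd45a KO against WT, the interval of the log2 difference was -0.06 to 0.15 for Dnmt1 and -0.13 to 0.17 for Uhrf1. Set against the libraries labelled Gadd45a KO, Ing1 KO had more Uhrf1 (0.24 ± 0.07 SE, edgeR adjusted p = 0.0364), the only call among the 8 genes in a comparison that called 14.1% of all genes (6.78% higher, 7.3% lower). That call was lost without any one of 5 libraries: with Ing1 KO replicate 2 left out the adjusted p was 0.164, and with replicate 1 it was 0.0667. It was 0.129 and 0.13 without replicates 1 and 3 labelled Gadd45a KO, 0.05 without the labelled DKO replicate 1, and 0.0771 when only these 2 groups were fitted.

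Uhrf2 (ENSMUSG00000024817, chromosome 19) did not follow its relative. It ranged from 103 to 107 CPM in the labelled DKO, 94.1 to 99.4 CPM in Ing1 KO, 102 to 105 CPM in the libraries labelled Gadd45a KO and 98.5 to 110 CPM in WT. No comparison called it, and its difference in the labelled DKO against WT had an interval of -0.09 to 0.10 on the log2 scale. Its lowest group was Ing1 KO, at -0.12 ± 0.04 SE against WT (edgeR adjusted p = 0.0686), and with WT replicate 1 left out it was called (edgeR adjusted p = 0.0219). Against Ing1 KO the labelled DKO had an adjusted p of 0.0635 for Uhrf2, and of 0.0398, 0.0495 or 0.0473 without WT replicate 1, WT replicate 2 or Ing1 KO replicate 1.

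Genes of DNA replication and S phase moved the same way as Dnmt1 and Uhrf1 in the labelled DKO against WT. Over all genes tested, 15.6% were called higher in this comparison and 10.3% lower. Of 30 listed S phase genes, 28 were called higher and 0 lower. Their median log2 fold change was 0.43 against 0.01 over all genes. Examples are the replication helicase subunits Mcm6 (0.45 ± 0.05 SE, edgeR adjusted p = 7.65e-05) and Mcm3 (0.53 ± 0.07 SE, 0.000206), and the histone chaperone subunit Chaf1a (0.51 ± 0.06 SE, 0.000174). Of the 30, 21 had a larger log2 fold change than Dnmt1 and 3 a larger one than Uhrf1. In Ing1 KO against WT 23.5% of all genes tested were called, 12.1% higher and 11.4% lower. Of the S phase list 2 genes were called higher there, the licensing factor Cdt1 and the flap nuclease Fen1. The ribonucleotide reductase subunit Rrm1 was the 1 called lower, and the median of the list was 0.03. The count of higher calls was 0 to 4 over the alternatives. Summed S phase levels were 1280 to 1310 CPM in the labelled DKO, 982 to 1020 CPM in Ing1 KO, 911 to 1010 CPM in the libraries labelled Gadd45a KO and 950 to 1080 CPM in WT. The part of the S phase genes, and of the macrophage markers given above, in the levels of Dnmt1 and Uhrf1 was not tested.

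**Figure D2:**
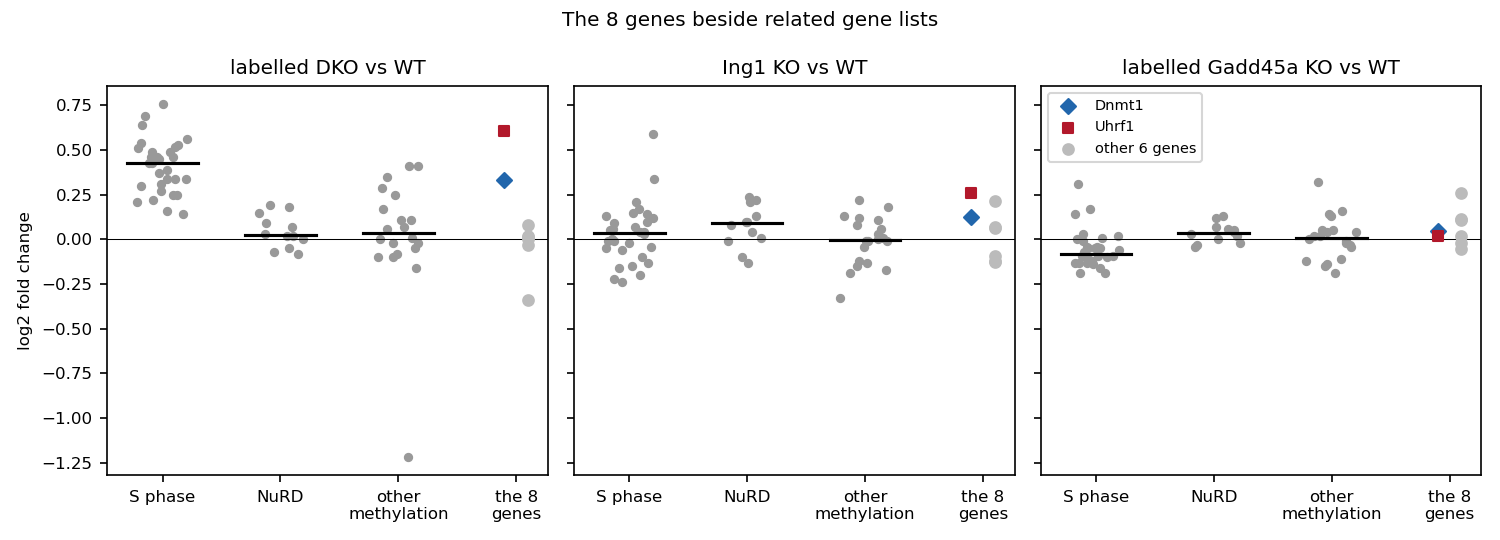
Log2 fold changes (edgeR) of each gene of 3 lists (S phase, NuRD, further methylation factors) and of the 8 genes in the 3 comparisons with WT, with 1 point per gene and a line at each list's median. S phase genes lie above 0 throughout in the labelled DKO against WT, from 0.14 to 0.76, and centre on 0.03 in Ing1 KO against WT.

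The count ratio of Uhrf1 to Dnmt1 within a library does not depend on library scaling. It was 0.514, 0.497 and 0.481 in the labelled DKO, 0.454, 0.469 and 0.430 in Ing1 KO, 0.382, 0.421 and 0.409 in the libraries labelled Gadd45a KO, and 0.397, 0.424 and 0.412 in WT. Uhrf1 was thus higher relative to Dnmt1 in each labelled DKO library than in any other. The 3 Ing1 KO libraries lay above WT as well. With 3 libraries a group, a two-sided exact permutation test cannot give a p under 0.1, so the ratios, which were added after the values were seen, carry no test.

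**Figure D3:**
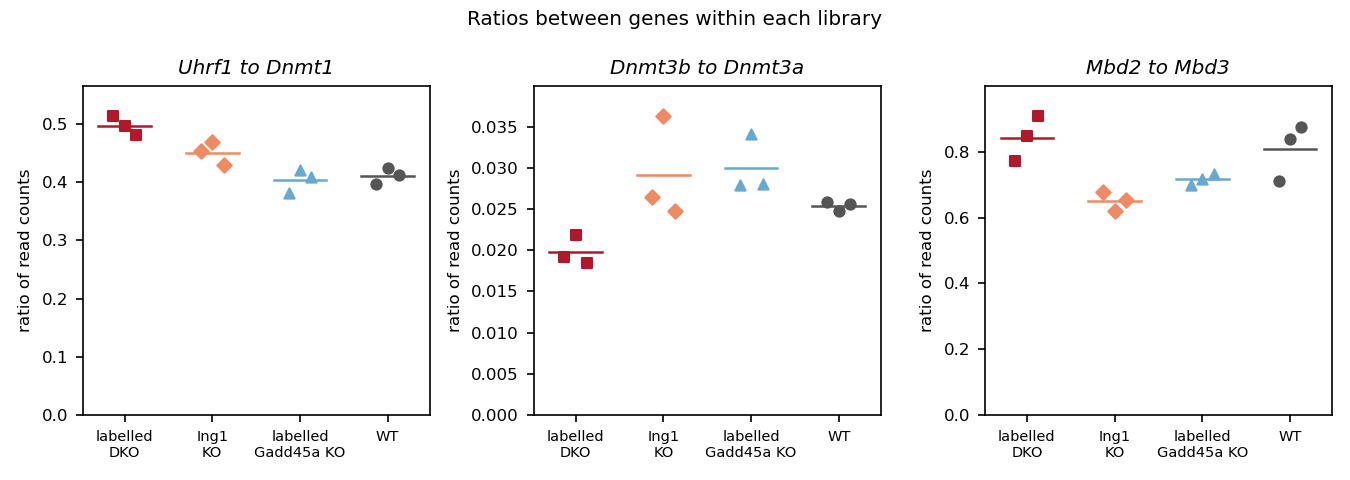
Count ratios within each library (no unit; linear axes) of Uhrf1 to Dnmt1, Dnmt3b to Dnmt3a and Mbd2 to Mbd3, by genotype label; points are libraries and horizontal lines their means. The labelled DKO libraries hold the highest Uhrf1 to Dnmt1 and the lowest Dnmt3b to Dnmt3a ratios, and Ing1 KO the lowest Mbd2 to Mbd3 ratios.

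Among the de novo enzymes, Dnmt3a was called in no comparison and Dnmt3b was rare and lowest in the labelled DKO. Dnmt3a (ENSMUSG00000020661, chromosome 12) ranged from 79.2 to 88.5 CPM in the labelled DKO, 73.0 to 81.6 CPM in Ing1 KO, 81.2 to 86.8 CPM in the libraries labelled Gadd45a KO and 81.0 to 85.5 CPM in WT. The ranges of the 4 groups overlapped, with Ing1 KO lowest on average. The interval of its log2 difference from WT was -0.10 to 0.14 in the labelled DKO, -0.24 to -0.01 in Ing1 KO (edgeR adjusted p = 0.109) and -0.10 to 0.13 in the libraries labelled Gadd45a KO. Without Ing1 KO replicate 3, Dnmt3a was called in Ing1 KO against WT (edgeR adjusted p = 0.0407) and against the libraries labelled Gadd45a KO (0.0364). In the labelled DKO against Ing1 KO it was called without Ing1 KO replicate 3 (0.0235) or the labelled DKO replicate 3 (0.0247). The antisense gene Dnmt3aos overlaps 133 exonic bases of Dnmt3a and the libraries do not mark strand, but it held 18 counts in all 12 libraries.

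Dnmt3b (ENSMUSG00000027478, chromosome 2) had 1.67, 1.93 and 1.46 CPM in the labelled DKO, 1.99, 2.65 and 2.01 CPM in Ing1 KO, 2.42, 2.93 and 2.27 CPM in the libraries labelled Gadd45a KO, and 2.21, 2.09 and 2.08 CPM in WT. The labelled DKO libraries were below all others. Over all genes tested, 41.3% did not overlap between the labelled DKO and WT. The share was 39.1% against Ing1 KO and 45.7% against the libraries labelled Gadd45a KO. The libraries labelled Gadd45a KO did not overlap WT either and lay above it, by 0.26 on the log2 scale, without passing the test (95% interval -0.10 to 0.61, edgeR adjusted p = 0.685). Over all genes tested, 14.7% did not overlap between these 2 groups. At 55 to 116 counts a library the standard error of Dnmt3b was 0.17 on the log2 scale, more than 3 times that of Dnmt1. The difference passed the test against the libraries labelled Gadd45a KO, where Dnmt3b was 1.51-fold lower (-0.60 ± 0.17 SE, edgeR adjusted p = 0.0201). With Dnmt1 and Uhrf1 this made 3 called of the 8 genes, against 26.4% of all genes tested (15.8% higher, 10.6% lower). The call was lost without the labelled DKO replicate 1 (0.0603) or 3 (0.079), or without replicate 2 labelled Gadd45a KO (0.0755). Against WT the log2 difference of the labelled DKO was -0.34 (95% interval -0.71 to 0.04, edgeR adjusted p = 0.178), and against Ing1 KO it was -0.40 (-0.77 to -0.03, 0.106).

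The count ratio of Dnmt3b to Dnmt3a was 0.0192, 0.0218 and 0.0184 in the labelled DKO, 0.0264, 0.0363 and 0.0247 in Ing1 KO, 0.0279, 0.0341 and 0.0280 in the libraries labelled Gadd45a KO, and 0.0258, 0.0248 and 0.0256 in WT. Each labelled DKO library was below every other library. Dnmt3l, the catalytically inactive cofactor of the de novo enzymes, was looked at after its values were seen. It had 0.259, 0.221 and 0.690 CPM in the labelled DKO, against 1.03, 0.856 and 0.902 CPM in WT, and the labelled DKO counts were 9, 7 and 26. All 3 labelled DKO libraries lay below WT, and 41.3% of all genes tested did not overlap between these groups. The log2 fold change of Dnmt3l was -1.22 ± 0.38 SE (edgeR adjusted p = 0.0293). This call was not kept in every alternative. Dnmt3l was also called lower than in the libraries labelled Gadd45a KO (-1.10 ± 0.37 SE, edgeR adjusted p = 0.0448). Against Ing1 KO it was not (-0.89 ± 0.38 SE, 0.109), and the labelled DKO replicate 3 lay within the Ing1 KO range of 0.576 to 0.905 CPM.

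Among the readers, Mbd3 was higher in Ing1 KO and near the WT level in the labelled DKO. Mbd3 (ENSMUSG00000035478, chromosome 10) had 85.3, 80.5 and 79.5 CPM in the labelled DKO, 92.6, 94.7 and 94.4 CPM in Ing1 KO, 85.5, 88.3 and 88.5 CPM in the libraries labelled Gadd45a KO, and 87.3, 79.0 and 76.5 CPM in WT. The Ing1 KO libraries were above all 9 others, and the labelled DKO overlapped WT. Over all genes tested, 37.2% did not overlap between Ing1 KO and WT, and 33.9% between Ing1 KO and the libraries labelled Gadd45a KO. Between the labelled DKO and Ing1 KO the share was 39.1%. In Ing1 KO against WT, Mbd3 was 1.16-fold higher (log2 fold change 0.21 ± 0.05 SE, edgeR adjusted p = 0.00748), and the call held under all 18 alternatives, with 0.0384 as the highest adjusted p. It was 1.15-fold lower in the labelled DKO than in Ing1 KO (-0.20 ± 0.05 SE, edgeR adjusted p = 0.0104). Its difference between the labelled DKO and WT had an interval of -0.09 to 0.12. Fibroblast markers also differed between Ing1 KO and WT, mostly downward, while Mbd3 and Uhrf1 were higher. Of 14 markers, 5 were called lower and 2 higher, with a median log2 fold change of -0.15. The matching shares of the whole gene set were 11.4% lower and 12.1% higher, 23.5% in either direction. Among the called markers were Dcn (-1.56 ± 0.15 SE, edgeR adjusted p = 0.000264), Postn (-0.44 ± 0.06 SE, 0.000587) and Vim (0.36 ± 0.06 SE, 0.00161). The part of the fibroblast markers in the levels of Mbd3 and Uhrf1 was not tested.

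Mbd2 moved in the other direction between these groups. Mbd2 (ENSMUSG00000024513, chromosome 18) had 65.9, 68.3 and 72.3 CPM in the labelled DKO, 62.6, 58.8 and 61.6 CPM in Ing1 KO, 59.7, 63.3 and 64.9 CPM in the libraries labelled Gadd45a KO, and 62.0, 66.3 and 67 CPM in WT. The labelled DKO libraries were above those of Ing1 KO without overlap, and WT overlapped every group. Between the labelled DKO and Ing1 KO, 39.1% of all genes tested did not overlap. Mbd2 was 1.13-fold higher in the labelled DKO than in Ing1 KO (0.17 ± 0.05 SE, edgeR adjusted p = 0.0213). With Dnmt1, Uhrf1 and Mbd3 this made 4 called of the 8 genes, against 24.8% of all genes tested (14.9% higher, 9.88% lower). The Mbd2 call did not hold without the labelled DKO replicate 2 (0.0526) or 3 (0.0857) or Ing1 KO replicate 2 (0.0976), without the low-count filter (0.054), or when only these 2 groups were fitted (0.0575).

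The count ratio of Mbd2 to Mbd3, the alternative NuRD subunits, was 0.772, 0.849 and 0.909 in the labelled DKO, 0.677, 0.621 and 0.652 in Ing1 KO, 0.698, 0.717 and 0.733 in the libraries labelled Gadd45a KO, and 0.711, 0.839 and 0.876 in WT. The 3 Ing1 KO libraries held the lowest ratios. The labelled DKO and WT overlapped and were spread more widely. Mbd1 (ENSMUSG00000024561, chromosome 18) was called in no comparison of the fit of all libraries. Its nearest was the labelled DKO against the libraries labelled Gadd45a KO (-0.14, edgeR adjusted p = 0.0715), where it was called with the replicate block (0.0276) and without the labelled DKO replicate 1 (0.0461). It ranged from 30.3 to 33.6 CPM in the labelled DKO, 33.5 to 35.2 CPM in Ing1 KO, 33.8 to 36.2 CPM in the libraries labelled Gadd45a KO and 31.5 to 34.4 CPM in WT.

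Counting both directions, other NuRD subunits were called about as often as genes in general. In Ing1 KO against WT, 3 of 12 were called higher and 0 lower. Over all genes 23.5% were called there, 12.1% higher and 11.4% lower. The median log2 fold change was 0.09 against -0.00 over all genes. The 3 were Gatad2a, which bridges MBD2 or MBD3 to the rest of the complex (0.24 ± 0.05 SE, edgeR adjusted p = 0.00357), the remodeller Chd4 (0.22 ± 0.04 SE, 0.00387) and Mta1 (0.21 ± 0.06 SE, 0.0243). Called lower in the labelled DKO than in Ing1 KO were 2, Gatad2a (-0.15 ± 0.05 SE, edgeR adjusted p = 0.0335) and Mta1 (-0.18 ± 0.06 SE, 0.0453). Over all genes 24.8% were called there, 9.88% lower. Under other settings 0 to 2 of the NuRD genes were called lower. Called higher in the labelled DKO than in WT were 3, the deacetylase Hdac1 (0.18 ± 0.05 SE, edgeR adjusted p = 0.0171), Mta3 (0.19 ± 0.05 SE, 0.0193) and Chd4 (0.15 ± 0.04 SE, 0.0233). Over all genes 25.9% were called there, 15.6% higher. The count of NuRD genes called higher was 1 when only these 2 groups were fitted.

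Of 23 further methylation factors, 20 passed the filter, and in the labelled DKO against WT 3 were called higher and 2 lower, close to the 25.9% called over all genes, with a median of 0.03. The chromatin remodeller Hells rose (0.41 ± 0.08 SE, edgeR adjusted p = 0.00251), as did its partner Cdca7 (0.35 ± 0.09 SE, 0.0107). The methyl-CpG binding zinc finger gene Zbtb4 fell (-0.16 ± 0.04 SE, edgeR adjusted p = 0.0127). The other lower call was Dnmt3l, given above, and over the alternatives 0 to 2 genes of this list were called lower. In Ing1 KO against WT, 2 were called higher and 1 lower: the methyl-CpG binding Zbtb38 (0.22 ± 0.07 SE, edgeR adjusted p = 0.0308) and the histone methyltransferase Ehmt2 (0.18 ± 0.06 SE, 0.0365) rose, and Zbtb4 fell (-0.17 ± 0.04 SE, 0.0109). Over all genes 23.5% were called, and the count of higher calls on this list was 0 when only these 2 groups were fitted. In the labelled DKO against the libraries labelled Gadd45a KO, 5 were called higher and 4 lower, against 26.4% over all genes, with Hells at 0.55 ± 0.08 SE (edgeR adjusted p = 0.000401).

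**Figure D4:**
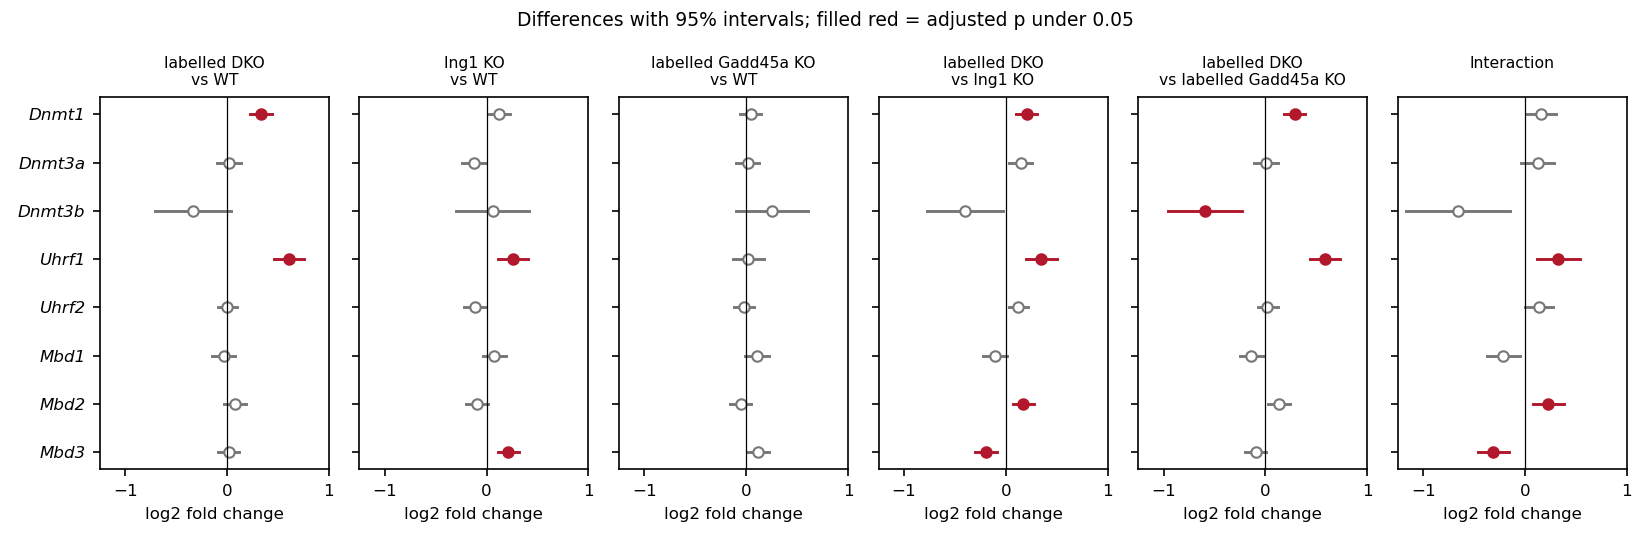
Log2 fold changes of the 8 genes (edgeR; bars are 95% intervals) in 5 comparisons of groups and in the interaction, with filled points for an adjusted p under 0.05. Uhrf1 and Dnmt1 lie furthest above 0 in the labelled DKO against WT, at 0.61 and 0.33, and the wide intervals belong to Dnmt3b.

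In the libraries labelled Gadd45a KO against WT, 0 of the 8 genes were called, where 0.00662% of all genes tested, a single gene, were called. DESeq2 called 0 of the 8 as well. At an unadjusted p under 0.05 edgeR listed 1, Mbd3, with a log2 fold change of 0.11 (95% interval 0.01 to 0.22, edgeR adjusted p = 0.552). The widest interval was that of Dnmt3b, -0.10 to 0.61, and those of the other 7 genes lay between -0.16 and 0.22. The median log2 fold change in this comparison was -0.08 for the S phase genes and 0.03 for the NuRD genes.

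The interaction asks whether the labelled DKO differed from WT by more or less than the sum of both single knockouts. It was called for 3 of the 8 genes, against 17.8% of all genes tested (10.4% above the sum, 7.4% below). Mbd3 lay below the sum (-0.31 ± 0.07 SE, edgeR adjusted p = 0.0112), and this held under all 17 alternatives. Uhrf1 lay above it (0.33 ± 0.10 SE, edgeR adjusted p = 0.0361), as did Mbd2 (0.23 ± 0.07 SE, 0.04). The Uhrf1 interaction was lost without any one of 7 libraries (adjusted p 0.0634 to 0.0964), and that of Mbd2 under 9 of 17 alternatives (0.0512 to 0.103). Without WT replicate 1 the interaction was also called for Mbd1 (edgeR adjusted p = 0.0307) and Uhrf2 (0.0453). Dnmt3b was furthest below the sum but missed the threshold (-0.66, 95% interval -1.17 to -0.15, edgeR adjusted p = 0.0715). Of the 30 S phase genes, 24 were called above the sum and 0 below, and the count was 13 without WT replicate 2.

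In the test over all 4 groups, 4 of the 8 genes were called, against 39.6% of all genes tested. These were Uhrf1 (edgeR adjusted p = 0.000112), Dnmt1 (0.000766), Mbd3 (0.0103) and Mbd2 (0.0497). The Mbd2 call held under 3 of 17 alternatives. The ratio of the highest to the lowest group mean was 1.52 for Uhrf1, 1.26 for Dnmt1, 1.16 for Mbd3 and 1.13 for Mbd2. It was 1.51 for Dnmt3b, 1.11 for Dnmt3a, 1.1 for Mbd1 and 1.09 for Uhrf2.

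Genes with the most similar profiles were found by the root mean square difference of log2 CPM over the 12 libraries, after centring each profile on its own mean. For Uhrf1 they were the cyclin Ccnf (0.0515), the chromosomal passenger subunit Cdca8 (0.0593) and the transcription factor Mybl2 (0.062), where the profile of Uhrf1 itself varied by 0.256. For Dnmt1, which varied by 0.136, they were the histone methyltransferase Nsd2 (0.042), Tecpr2 (0.0514) and the centrosomal gene Cep192 (0.0522). For Mbd3, which varied by 0.099, they were Mfsd5 (0.0262), Cluh (0.0277) and Mafg (0.0318). For Mbd2, which varied by 0.0813, they were the endoplasmic reticulum genes Pdia4 (0.0287) and Sec63 (0.0328) and the coat protein gene Copb2 (0.0342). The profiles share libraries and depth, and likeness was searched over 11648 genes.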

How the data were processed

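RNA was measured in 12 libraries, 3 in each of 4 genotype groups taken from the labels, with gene-level counts as the deposited values. Per the submitters' processing notes, reads were handled with TopHat2 2.0.9, Bowtie2 2.1.0 and HTSeq 0.5.4, with mm9 as the build. Per the labels' protocols, polyadenylated RNA was read for 51 cycles from 1 end with a strand-blind kit. Summary lines, 23.89% to 24.91% of the reads listed, were left out, and most were reads that did not map uniquely (17.9% to 19.12%), so genes with near-identical copies may be undercounted. No libraries held identical counts, and replicates differed by more than counting noise.

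Symbols and exon lengths came from a GENCODE annotation of another build, GRCm38, which gave 32919 of 37991 identifiers a symbol. edgeR 4.0.16 in R 4.3.3 was fitted once to the 12 libraries and 4 groups, with TMM normalisation, filterByExpr, robust dispersions and two-sided quasi-likelihood F tests. A gene was called at a Benjamini-Hochberg adjusted p under 0.05 over all 15098 genes. Residual degrees of freedom were 8, and replicates varied by 8.17% (biological coefficient of variation). The standard error (SE) is the log2 fold change divided by the square root of F. CPM is the count divided by the TMM-scaled library size in units of 1e6. The fit was tested on simulated data.

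The 8 genes and the lists were chosen with earlier results of these data known. Named were the 8 genes, Ing1 and Gadd45a, up to 3 called members of each list and comparison by adjusted p (up to 2 abundant ones where none was called), and the 3 nearest profiles of each gene called over the 4 groups. Genes named outside this rule are said to be so. DESeq2 1.42.0, RLE normalisation, no filter, non-robust dispersions, fits of 2 groups, a replicate block and leaving out each library were the alternatives. Deviations of same-numbered libraries labelled Gadd45a KO and WT had correlations of 0.34, 0.11 and 0.13. Only the replicate 1 pair stood apart. WT replicate 2 had 0.11 with replicate 3 labelled Gadd45a KO, and WT replicate 3 had 0.13 with replicate 2. Over all groups, 4 of 18 same-numbered and 7 of 36 other-numbered pairs were over 0.1. The labels give no pairing. With the block, the libraries labelled Gadd45a KO against WT had 1 gene called and 0 of the 8, as without it.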

Additional observations from a re-analysis of the deposited data

Results flagged for a closer look

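The interaction between the genotypes differed from 0, by its own test, for 3 of the 8 genes, against 17.8% of all genes tested. Mbd3 had an interaction of -0.31 ± 0.07 SE on the log2 scale (edgeR adjusted p = 0.0112). Uhrf1 had 0.33 ± 0.10 SE (edgeR adjusted p = 0.0361) and Mbd2 0.23 ± 0.07 SE (edgeR adjusted p = 0.04). The Mbd3 call held under all 17 alternatives, while that of Uhrf1 was lost without any one of 7 libraries and that of Mbd2 under 9 of 17 alternatives. From 1 to 5 of the 8 genes were called when each library was left out in turn. The interaction takes the label of the Gadd45a KO group as given, and Gadd45a RNA was higher in that group than in WT.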

How the results depend on the processing

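Over 1136 recalculations of a call for the 8 genes, 47 lost a call, 18 gained one and 0 reversed. The calls of Dnmt1 and Uhrf1 in the labelled DKO, against each other group, and of Mbd3 in Ing1 KO against WT and in the interaction were kept in every alternative run. DESeq2 called 31 genes in the libraries labelled Gadd45a KO against WT, and a fit of these 2 groups alone called 0, against 1 in the fit of all groups. A fit of the 2 groups alone called 1271 genes, and 0 of the 8, in Ing1 KO against the libraries labelled Gadd45a KO. With a replicate block, 5 of the 8 genes were called in the labelled DKO against the libraries labelled Gadd45a KO, with Mbd1 (edgeR adjusted p = 0.0276) and Mbd2 (0.0444) added to the 3. The block also added Mbd1 to the interaction (0.0312) and Dnmt3b to the test over the 4 groups (0.0438), and moved no other count of all genes or of the 8 by over 1.5 times. Under the block the single calls on the S-adenosylmethionine list in Ing1 KO against the libraries labelled Gadd45a KO, on the germline list in the interaction and on the epithelial list in Ing1 KO against WT were lost. Same-numbered libraries may share only a number: outside pairs of WT with the labelled Gadd45a KO, 1 of the other 15 had a correlation of deviations over 0.1.

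When each library was left out in turn, from 1858 to 3553 genes were called in Ing1 KO against WT, 1 to 13 in the libraries labelled Gadd45a KO against WT and 2754 to 4106 in the labelled DKO against WT. The counts were 2249 to 3862 in the labelled DKO against Ing1 KO, 2679 to 4186 against the libraries labelled Gadd45a KO, 760 to 2227 in Ing1 KO against the libraries labelled Gadd45a KO, 1300 to 3285 in the interaction and 4488 to 6021 over all 4 groups. Of the 8 genes, the same comparisons called 1 to 3, 0 to 0, 2 to 2, 3 to 5, 2 to 3, 0 to 2, 1 to 5 and 3 to 5. The causes were not tested. Depth limits Dnmt3b, at 55 to 116 counts, and Dnmt3l, at 7 to 45.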

Other observations

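Genes listed for the S-adenosylmethionine cycle, which supplies the methyl donor, were looked at as well. Of 13 listed genes 11 passed the filter. In the labelled DKO, 4 were called against the libraries labelled Gadd45a KO (26.4% over all genes) and 2 against Ing1 KO (24.8%). In Ing1 KO against the libraries labelled Gadd45a KO 1 was called (14.1%), and over the 4 groups 5 were (39.6%). In Ing1 KO against WT 2 were called higher, the serine hydroxymethyltransferase Shmt2 (0.41 ± 0.07 SE, edgeR adjusted p = 0.00162) and the methionine synthase Mtr (0.19 ± 0.06 SE, 0.0323), against 23.5% over all genes (12.1% higher). In the labelled DKO against WT, Ahcyl2 (0.36 ± 0.07 SE, edgeR adjusted p = 0.003) and Mtr (0.29 ± 0.06 SE, 0.00348) rose, and Mat2a, which makes S-adenosylmethionine, fell (-0.15 ± 0.04 SE, 0.00929), against 25.9% over all genes. Shmt2 lay below the sum of the single knockouts in the labelled DKO (interaction -0.61 ± 0.10 SE, edgeR adjusted p = 0.00314).

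Germline genes that methylation is known to silence in somatic cells were mostly near 0. Of 15 with an identifier, 4 passed the filter, and Hormad1, named for its counts, had 0 in every library. Brdt, a testis bromodomain gene, averaged 4.42 CPM in the labelled DKO, 3.04 CPM in Ing1 KO, 5.51 CPM in the libraries labelled Gadd45a KO and 6.24 CPM in WT. It fell in Ing1 KO against WT (-1.04 ± 0.16 SE, edgeR adjusted p = 0.000728) and in the labelled DKO against WT (-0.50 ± 0.15 SE, 0.0282). The meiotic gene Sycp1 had 69, 69 and 29 counts in the labelled DKO libraries and 68, 78 and 87 in Ing1 KO, with 1, 0 and 0 in the libraries labelled Gadd45a KO and 1, 1 and 45 in WT. It was called higher in Ing1 KO (edgeR adjusted p = 0.0162) and in the labelled DKO (0.0108) than in the libraries labelled Gadd45a KO, and neither call held without replicate 1 labelled Gadd45a KO. Against WT it was not called, with WT replicate 3 far above the other two.

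Of the lists of other cell types, 3 of 6 endothelial genes that passed the filter were called higher in the labelled DKO than in WT. A further 1, Tek, was called lower, and 2 of 3 epithelial genes were called higher. These counts include the genes named above. Of 14 fibroblast genes, 2 were called lower in the labelled DKO than in WT, Dcn (-1.26 ± 0.15 SE, edgeR adjusted p = 0.000438) and Pdgfrb (-0.28 ± 0.06 SE, 0.0048). Over all genes tested, 25.9% were called in this comparison, 15.6% higher and 10.3% lower.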
